A study of Mus musculus with 28 samples.

Results

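Hmga2 and Hmga1 are the 2 genes of the HMGA family of chromatin proteins, and their H3K27ac landscape during TGF-β-induced EMT is described here region by region. H3K27ac peaks were assigned to either gene when the summit lay within 250 kb of, and nearest to, one of its protein-coding start sites. The members were thus selected on the called peaks and their summit positions in all 15 H3K27ac libraries, and that choice is a description rather than a result. The rule gave 244 of 893719 peaks, which merged into 24 of 89050 regions. Of these, 197 peaks in 18 regions belonged to Hmga2 and 47 peaks in 6 regions to Hmga1.

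The libraries were made from NMuMG cells, a line of normal mouse mammary gland epithelium, of which the subclone NMuMG/E9 was used throughout. The 5 conditions were compared with 3 libraries each, named 0h for untreated cells, 4h and 24h for cells given TGF-β (2 ng/ml) together with the solvent DMSO, and ERKi 4h and ERKi 24h for cells given TGF-β for the same times. The ERKi cells received UO126 (25 µM), an inhibitor of the kinase MEK that keeps ERK unphosphorylated, 30 min before TGF-β. The labels do not say whether replicates were separate cultures, so the p-values measure the spread between these libraries only, which may be technical. All results concern 1 subclone and 1 inhibitor, and cells of different state within a culture cannot be told apart from different acetylation per cell.

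HMGA proteins are small architectural factors that bind the minor groove of AT-rich DNA through short AT-hook motifs and bend or open chromatin for other factors. Hmga2 is expressed in the embryo and in many tumours, is induced by TGF-β through Smad proteins, and acts on Snai1 and Twist1 in EMT, whereas Hmga1 is the relative found more widely in proliferating cells. H3K27ac is an acetyl mark on histone H3 that is found at active promoters and enhancers.

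Hmga2 lies on the minus strand of chromosome 10 (mm9), from 119798331 to 119913525, a span of 115.2 kb with 1 coding start site. The nearest other protein-coding start sites were those of Llph at 249.3 kb and of 4921513I03Rik at 289.3 kb, so that no other protein-coding start lay near it. Genes for small and non-coding RNAs are annotated inside the gene and upstream of it, among them SNORA17 between the upstream regions. Of its 18 regions 1 overlapped the start site, 8 lay upstream in intergenic sequence and 9 lay downstream, all of the 9 inside intron 3. Hmga1 lies on the plus strand of chromosome 17 from 27693565 to 27700619, is 7.1 kb long, and has close neighbours, with Grm4 at 43.3 kb and C130040N14Rik at 8.4 kb. Of its 6 regions 1 overlapped the start sites, 2 were intergenic upstream and 3 lay inside introns of Hmga1 itself.

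The sequences below are those of the regions on which the results turn, read from the mm9 genome as 200 bp centred on the summit that ranked highest within its own library's list, by percentile of the pileup (plus strand), and the 150 bases before each gene's first start site (gene strand). Capitals mark matches, on either strand, to the motifs TGANTCA (AP-1), CAGACA and GTCTAGAC (SMAD), CCGGAA (ETS), TGTGGTT (RUNX), GGAATG (TEAD), TGTTTAC (FOXA), CAGCTG and CACCTG (E-boxes).
Hmga2 141 kb upstream, chr10:120054135-120054334, the distal Hmga2 region with the largest differences among those called in all libraries: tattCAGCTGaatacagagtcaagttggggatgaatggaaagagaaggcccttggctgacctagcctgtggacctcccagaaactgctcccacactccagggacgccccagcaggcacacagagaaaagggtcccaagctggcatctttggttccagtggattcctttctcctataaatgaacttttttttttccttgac
Hmga2 127 kb upstream, chr10:120040042-120040241, called only at 24h: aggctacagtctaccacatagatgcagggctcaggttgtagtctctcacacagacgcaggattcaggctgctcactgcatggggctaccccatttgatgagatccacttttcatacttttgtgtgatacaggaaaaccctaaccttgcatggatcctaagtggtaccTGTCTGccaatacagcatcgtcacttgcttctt
Hmga2 107 kb upstream, chr10:120020207-120020406, called in every TGF-β library and in no 0h library: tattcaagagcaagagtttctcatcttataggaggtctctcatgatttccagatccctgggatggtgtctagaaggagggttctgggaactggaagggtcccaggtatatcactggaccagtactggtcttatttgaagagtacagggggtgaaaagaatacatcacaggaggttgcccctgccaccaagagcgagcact
Hmga2 101 kb upstream, chr10:120014323-120014522, called in every 24h library: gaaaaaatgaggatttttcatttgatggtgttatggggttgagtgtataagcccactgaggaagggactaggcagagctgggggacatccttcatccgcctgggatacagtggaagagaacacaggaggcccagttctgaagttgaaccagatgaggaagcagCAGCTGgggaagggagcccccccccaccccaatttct
Hmga1 9.44 kb upstream, chr17:27684021-27684220, the distal region of Hmga1 called in every library: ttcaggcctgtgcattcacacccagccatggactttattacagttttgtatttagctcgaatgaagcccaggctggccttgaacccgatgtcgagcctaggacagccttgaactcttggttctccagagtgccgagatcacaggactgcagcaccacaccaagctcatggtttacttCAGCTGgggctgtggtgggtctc
Hmga2 promoter, chr10:119913526-119913675, minus strand: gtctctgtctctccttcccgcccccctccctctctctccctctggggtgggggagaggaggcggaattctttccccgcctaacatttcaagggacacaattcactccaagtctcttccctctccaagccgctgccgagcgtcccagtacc
Hmga1 promoter, chr17:27693415-27693564, plus strand: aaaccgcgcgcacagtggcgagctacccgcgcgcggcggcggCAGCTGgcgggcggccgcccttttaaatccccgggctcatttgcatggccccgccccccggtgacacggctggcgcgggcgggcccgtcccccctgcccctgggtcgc

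The E-box letters CAGCTG stood in 7 of the 21 member windows more than 1000 bp from any annotated start, 6 of them at Hmga2, and in 12.2% of all 71306 such windows of the genome. CAGACA stood in 5 of the 21 windows and in 21% of all. The AP-1 letters stood in 0 of 21 and in 6.45% of all, and the RUNX letters in 0 of 21 and 4.43% of all. The palindromic SMAD letters stood in 0 of 21 and in 0.217% of all. GGAATG was found in 2 windows (11.6% of all), and CCGGAA (2.34%), TGTTTAC (2.97%) and CACCTG (15.1%) in 1 each. These are letter matches in short windows, given without a test. The 2 promoters differed in base composition, with 60.7% G and C in the bases before the Hmga2 start and 77.3% before that of Hmga1, against a median of 47.5% in the distal windows.

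The height of a region in a library was taken as the summit pileup, the number of extended reads over the summit, of its highest peak. This number was worked back from the deposited fold enrichment and p-value, and a blank means that no peak was called, which is not a level of 0. The library totals in reads were not given in the sources used here. The lists held 50445 to 69180 peaks per library, the lowest background in a library was 2.37 to 3.43 reads, and the replicate-2 libraries had lower median pileups (38 to 41 reads) than the others (43 to 57 reads). The test was therefore made on log2 pileups centred on the median of each library.

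**Figure D1:**
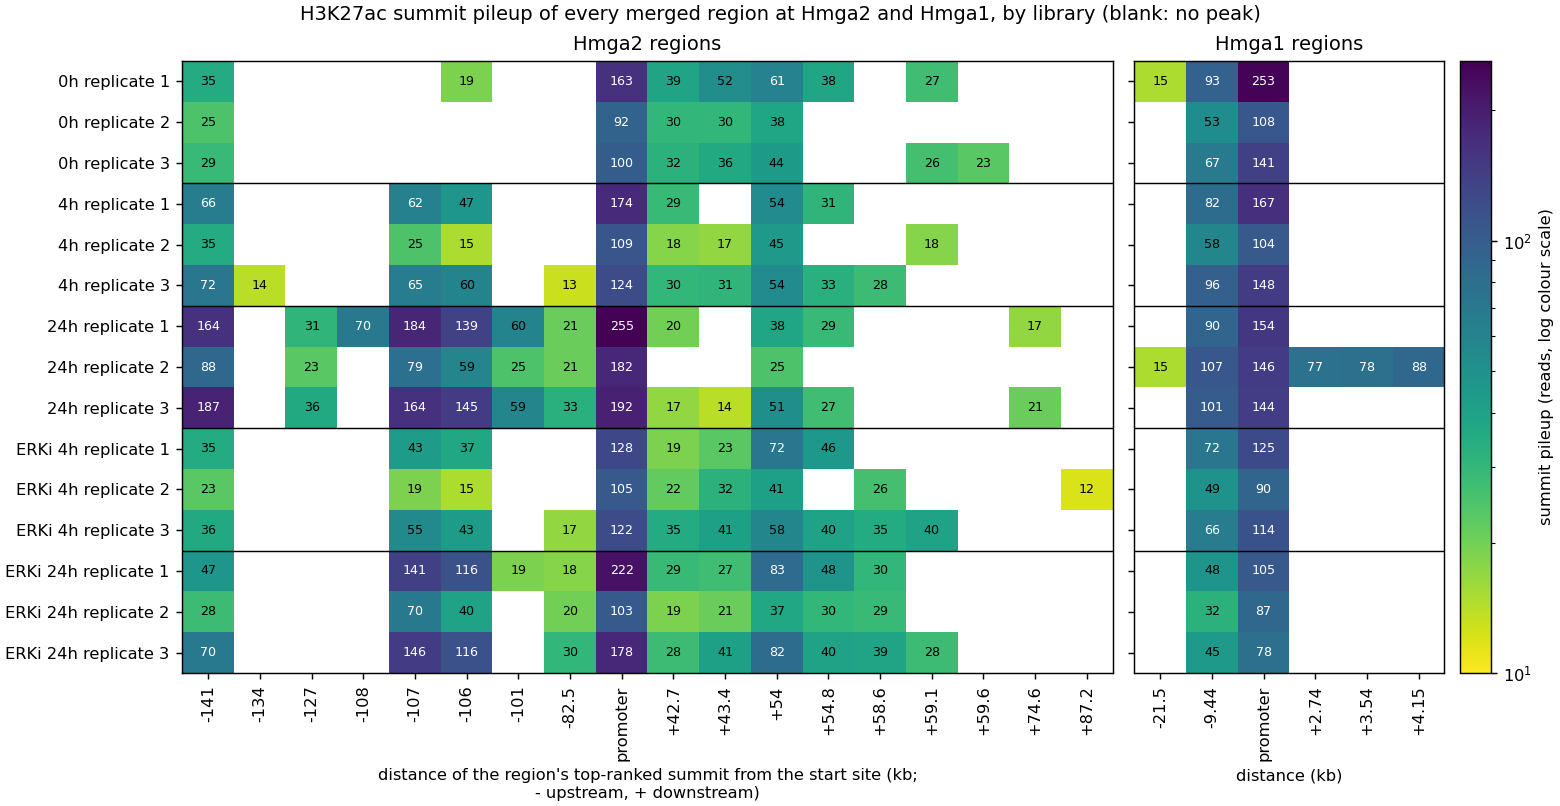
Each column is a merged H3K27ac region of Hmga2 (left) or Hmga1 (right), ordered by distance in kb of its top-ranked summit from the start site, and each row is a library. Colour (log scale) and number give the summit pileup in reads, and a blank cell means no peak. Upstream of Hmga2 the blocks of the 3 TGF-β libraries at 24h hold the darkest distal cells, and the region at 141 kb falls from 88 to 187 reads at 24h to 28 to 70 reads in ERKi 24h.

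Peaks near Hmga2 were more numerous after TGF-β, and the additional ones lay upstream of the gene. The libraries of 0h had 9, 7 and 9 peaks, those of 4h had 10, 11 and 14, and those of 24h had 16, 18 and 18. Every library at 4h and at 24h was above every 0h library, a pattern shown by 3.76% and 11.8% of the 15748 genes with any peak. These are counts of peaks, and 1 merged region can hold several. Counted as regions, the libraries had 5 to 8 at 0h, 7 to 11 at 4h and 8 to 12 at 24h, which were not separated. Upstream peaks numbered 1.33 ± 0.577 (SD, n = 3) at 0h and 10.7 ± 2.89 at 24h in the mean, whereas downstream peaks numbered 5.33 ± 1.15 and 5 ± 2.65. The bases covered by upstream peaks were 1215 to 1527 at 0h, 2095 to 3269 at 4h and 5685 to 7064 at 24h, without overlap. The difference in peaks per library between 24h and 0h, 9 by this rule, was 4 among peaks with −log10 q of at least 10, 3.67 among the 20000 strongest peaks of each list, 2 within 100 kb, and 1 when the start sites of all annotated genes were used, since the upstream regions were then nearest to SNORA17. The difference between 4h and 0h, 3.33, was 1.33, 1.33, 0.667 and 0 in the same order.

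With ERK inhibition Hmga2 had 14, 16 and 12 peaks at 4h and 15, 14 and 14 at 24h. Every ERKi 24h library was below every 24h library, as for 3.19% of genes, and above every 0h library, as for 10.8% of genes. In merged regions ERKi 24h was not below 24h, with a mean of 10.7 per library in each (10 to 11 and 8 to 12). The lower number of peaks is thus not a lower number of called regions. Upstream peaks numbered 7, 4 and 5 in ERKi 24h against 9, 14 and 9 at 24h, and covered 2303 to 3790 bases. The ERKi 4h and 4h libraries overlapped, with 12 to 16 and 10 to 14 peaks. Within 100 kb of the start site the order of ERKi 24h and 24h was the opposite, with 1.33 more peaks per library in ERKi 24h, and the lower number over the whole window came from peaks beyond that distance.

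Hmga1 had few peaks in every condition. There were 3 peaks in each 0h library, 2, 4 and 3 at 4h, and 3, 7 and 3 at 24h. ERKi 4h libraries had 2, 3 and 4 peaks and ERKi 24h libraries 2, 3 and 2, and all conditions overlapped with 0h. The 7 peaks of 24h replicate 2 included 3 regions called in no other library, 2.74, 3.54 and 4.15 kb downstream of the start and inside introns 1 and 2. Their pileups of 77, 78 and 88 reads were high, but stood on local backgrounds of 40.9 to 46.4 reads, a fold enrichment of 1.79 to 1.88. The region 21.5 kb upstream of Hmga1 had 15 reads in 0h replicate 1 and 15 in 24h replicate 2 and no peak elsewhere.

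**Figure D2:**
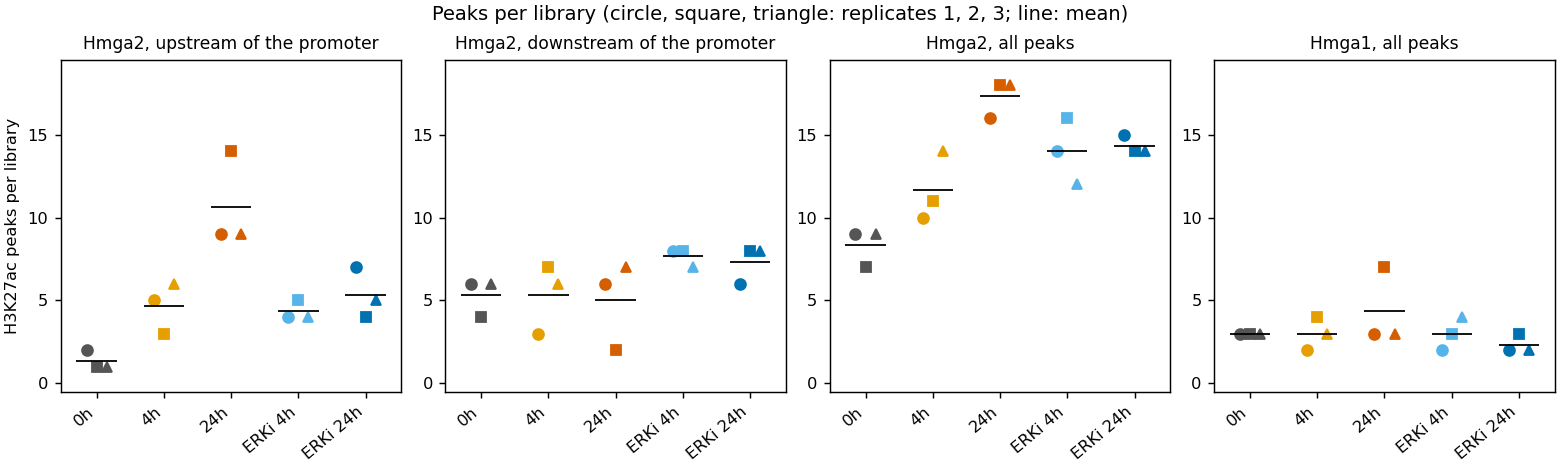
H3K27ac peaks per library (y axis) by condition (x axis), with a symbol for each replicate and a line at the mean. The 3 libraries at 24h have 9 to 14 peaks upstream of Hmga2 against 1 or 2 at 0h, while the downstream and Hmga1 counts overlap between 0h and 24h.

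The regions gained at Hmga2 by 24h were all upstream. At this gene 4 regions had a peak in 3 of 3 libraries at 24h and in 0 of 3 at 0h, and no Hmga1 region did. That is 4 of 24 members, where 4.91% of all 89050 regions had this pattern. They lay 82.5, 101, 107 and 127 kb upstream of the start site, while 0 of 24 members were called in all 0h and no 24h libraries, a pattern of 2.07% of regions.

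The region 107 kb upstream was the only member called in 3 of 3 libraries at 4h and 0 of 3 at 0h, a pattern of 1.15% of regions. Its summit pileup was 62, 25 and 65 reads at 4h, 184, 79 and 164 at 24h, 43, 19 and 55 in ERKi 4h, and 141, 70 and 146 in ERKi 24h. It was thus called in all 12 TGF-β libraries, with or without the inhibitor. Each replicate was higher at 24h than in ERKi 24h, but in unscaled reads the groups overlapped. Missing levels of other libraries were then set to the lowest pileup of each list. With these, ERKi 24h minus 24h was -0.38 ± 0.35 (SE) on the log2 scale (limma, adjusted p = 0.60). In that fit 4.53% of 34839 regions were lower. No fold over 0h is given, as 0h has no level. The adjoining region 106 kb upstream, named after its values were seen, was called in 1 of 3 libraries at 0h and in all others. Its pileup was 139, 59 and 145 reads at 24h and 116, 40 and 116 in ERKi 24h.

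The region 127 kb upstream was called in every 24h library, with 31, 23 and 36 reads, and in none of the other 12. These heights were low, at percentile 28 to 42.1 of each library's own list, and a missing peak elsewhere is not a level of 0. The same region was the only member called in 3 of 3 libraries at 24h and 0 of 3 in ERKi 24h, as were 1.21% of regions. The region 101 kb upstream was of the same kind, with 60, 25 and 59 reads at 24h and otherwise a single peak of 19 reads in ERKi 24h replicate 1. Its local background was 6.76 to 16.1 reads at 24h.

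The region 82.5 kb upstream was low wherever it was called. It held 21, 21 and 33 reads at 24h and 18, 20 and 30 in ERKi 24h, so that the groups with and without inhibitor overlapped, and 13 and 17 reads in replicate 3 of 4h and of ERKi 4h. With the regions 107 kb upstream and 58.6 kb downstream it made up the 3 members called in all ERKi 24h and no 0h libraries, against 4.38% of regions. The 2 upstream regions not yet described, at 108 and 134 kb, had a peak in 1 library each, of 70 reads on a local background of 35.8 in 24h replicate 1 and of 14 reads in 4h replicate 3.

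The region 58.6 kb downstream, inside intron 3, was the only member gained in ERKi 24h over 24h, as were 1.49% of regions. It had 30, 29 and 39 reads in ERKi 24h, 26 and 35 in replicates 2 and 3 of ERKi 4h, 28 in 4h replicate 3, and no peak at 0h or 24h. The other intronic regions without a peak in all libraries were 7 in number and called in 1 to 14 libraries, with pileups of 12 to 52 reads. At 42.7 and 43.4 kb, both called in every 0h library, there were 39, 30 and 32 reads and 52, 30 and 36 reads at 0h. At 24h they held 20 and 17 reads in 2 libraries and 14 reads in 1 library, and both were called in every ERKi 24h library. These were picked out after their values were seen. In the fit over regions called in at least 12 libraries, 1 and 2 of their 24h levels respectively were set to the lowest pileup of the list. With these they fell by 1.16 ± 0.26 and by 1.73 ± 0.36 on the log2 scale from 0h to 24h. Given that choice and the set levels, both falls are a description and not a test. Of the 9 members in that fit these 2 were lower at 24h than at 0h at an adjusted p under 0.05, where 9.63% of regions were, and 4 were higher, where 13.1% were. At 4h 2 were higher than at 0h (5.24% of regions), and in ERKi 24h 2 were higher (13.9% of regions). Both times these were the regions 106 and 107 kb upstream, which were also among the 4 higher at 24h. Their missing 0h levels were set in the same way, at 107 kb in every 0h library and at 106 kb in all but 1. Both entered this fit through their peaks in the TGF-β libraries. Their calls against 0h thus depend on the set levels and were not taken as a tested rise.

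**Figure D3:**
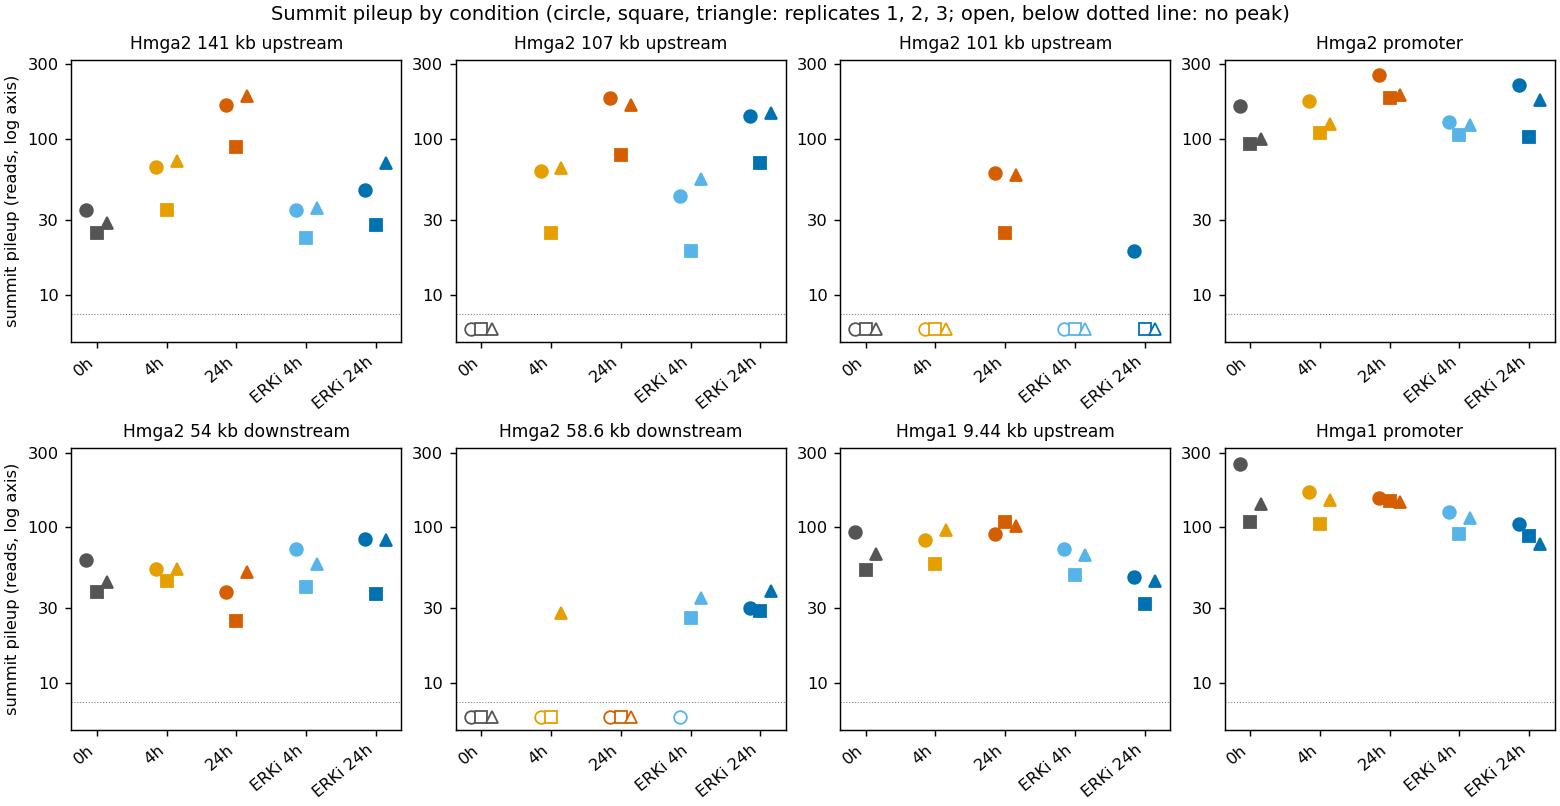
Summit pileup in reads (y axis, log scale) by condition (x axis) for 8 regions, with a symbol for each replicate and open symbols below the dotted line where no peak was called. At 141 kb upstream of Hmga2 the 24h libraries stand above all others, at 107 kb the ERKi 24h libraries (70 to 146 reads) overlap those of 24h (79 to 184 reads), and at Hmga1 9.44 kb upstream the ERKi 24h libraries (32 to 48 reads) lie below all others.

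Of the 24 members 5 had a peak in all 15 libraries and so a level in each, and were tested among 26934 such regions. At 24h against 0h 2 of the 5 rose, both at Hmga2, where 10.3% of regions rose, and 0 of 5 fell, where 7.85% fell. At 24h with ERK inhibition against 24h 4 of the 5 fell, where 3.98% fell, and 0 rose, where 3.53% rose. With limma 0 of 5 passed at 4h against 0h, where 3.62% of regions rose, and 0 of 5 in ERKi 4h against 4h, where 0.26% fell. In each of these, 1 of the 5, the region 141 kb upstream of Hmga2, had an unadjusted p under 0.05. That region passed in both when the replicate number was entered as a block, a fit for which the share of all regions passing was not worked out. The 24h libraries enter both 24h comparisons, so a high value in them moves both.

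Of the 5, the region 141 kb upstream of Hmga2 had the largest differences. Its pileup was 35, 25 and 29 reads at 0h, 66, 35 and 72 after 4h of TGF-β, 164, 88 and 187 after 24h, 35, 23 and 36 in ERKi 4h, and 47, 28 and 70 in ERKi 24h. In unscaled reads the 24h libraries lay above all others, and the ERKi 24h libraries overlapped both 0h and 4h. Centred on each library's median, ERKi 24h (-1.21 to -0.585) overlapped 4h (-0.937 to -0.273) but lay above 0h (-1.65 to -1.37). The centred log2 level was -1.47 ± 0.155 (SD) at 0h, 0.768 ± 0.422 at 24h and -0.989 ± 0.351 in ERKi 24h (n = 3 each). It rose by 2.24 ± 0.26 (SE) on the log2 scale from 0h to 24h, 4.73-fold (adjusted p = 1.5e-05), and fell by 1.76 ± 0.26, 3.38-fold, from 24h to ERKi 24h (adjusted p = 0.00060).

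At 4h the same region was 0.90 ± 0.26 above 0h (adjusted p = 0.060) and ERKi 4h was -0.73 ± 0.26 from 4h (adjusted p = 0.52). Both passed when the replicate number was entered as a block, at adjusted p = 0.00033 and 0.010. The difference between ERKi 24h and 0h, 0.48 ± 0.26 (adjusted p = 0.21), also passed with the block (adjusted p = 0.023). Within each library's own list the region stood at percentile 29.4 to 34.8 at 0h, 80.7 to 96 at 24h and 35.1 to 61.1 in ERKi 24h.

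The summit of this region moved between libraries. In 11 libraries it lay within a stretch near the sequence shown above, and in 0h replicate 1 and replicate 2 of 4h, ERKi 4h and ERKi 24h it lay nearer to the gene. The peaks covered 2192 to 2285 bases at 24h and 800 to 1317 bases in the other conditions, apart from the 4h libraries with 1194 to 1624.

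At 141 and 107 kb, heights within the same library could be set side by side. The ratio of the pileup at 141 kb to that at 107 kb was 0.891, 1.11 and 1.14 at 24h and 0.333, 0.4 and 0.479 in ERKi 24h, without overlap. It was 1.06, 1.4 and 1.11 at 4h and 0.814, 1.21 and 0.655 in ERKi 4h, which overlapped. This ratio needs no scaling between libraries, but it was chosen after the values were seen and is given without a test.

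The Hmga2 promoter region, 3689 bp around the start site with its top-ranked summit 616 bp inside the gene in intron 1, was acetylated in every condition. Its pileup was 163, 92 and 100 reads at 0h, 174, 109 and 124 after 4h of TGF-β, 255, 182 and 192 after 24h, 128, 105 and 122 in ERKi 4h, and 222, 103 and 178 in ERKi 24h. In unscaled reads the 24h libraries lay above those of 0h and overlapped those of ERKi 24h. Centred on each library's median, the log2 levels were 1.21 to 1.44 at 24h and 0.709 to 1.03 in ERKi 24h, without overlap. The promoter region rose by 0.86 ± 0.14 on the log2 scale, 1.81-fold, from 0h to 24h (limma, adjusted p = 0.00035). It fell by 0.51 ± 0.14, 1.42-fold, from 24h to ERKi 24h (adjusted p = 0.033). The second of these calls was lost when 24h replicate 1 or 2 or ERKi 24h replicate 2 or 3 was left out (adjusted p = 0.13, 0.084, 0.12 and 0.12). ERKi 24h was 0.35 ± 0.14 above 0h (adjusted p = 0.095, and 0.0079 with the replicate block). At 4h neither difference passed, with 0.21 ± 0.14 over 0h (adjusted p = 0.58) and -0.06 ± 0.14 with the inhibitor (adjusted p = 1).

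The region 54 kb downstream, in intron 3, was the intronic one with a peak in all libraries. It had 61, 38 and 44 reads at 0h, 54, 45 and 54 after 4h of TGF-β, and 38, 25 and 51 after 24h. It had 72, 41 and 58 in ERKi 4h and 83, 37 and 82 in ERKi 24h, and all conditions overlapped in unscaled reads. Centred on each library's median, 0h (-0.851 to -0.769) lay below ERKi 4h (-0.665 to -0.222) and just below ERKi 24h (-0.768 to -0.357). The 24h levels (-1.49 to -0.703) overlapped 0h and ERKi 24h. The region differed by -0.36 ± 0.23 on the log2 scale between 24h and 0h (limma, adjusted p = 0.34). It was 0.66 ± 0.23 higher in ERKi 24h than at 24h (adjusted p = 0.090), which passed with the replicate block (adjusted p = 0.0060) and without 24h replicate 3 (adjusted p = 0.029). Its direction was thus opposite to that of the promoter in the same comparison. Its pileup as a share of the promoter's in the same library was 0.137 to 0.266 at 24h and 0.31 to 0.562 in the other conditions, a ratio chosen after the values were seen.

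At Hmga1 the differences that passed in the main fit were those of the ERKi 24h libraries. The region 9.44 kb upstream had 93, 53 and 67 reads at 0h, 82, 58 and 96 after 4h of TGF-β, 90, 107 and 101 after 24h, 72, 49 and 66 in ERKi 4h, and 48, 32 and 45 in ERKi 24h. ERKi 24h lay below every library of the other conditions. It fell by 1.41 ± 0.20 on the log2 scale, 2.65-fold, from 24h to ERKi 24h (adjusted p = 0.00050), and from 0h to ERKi 24h it fell by 0.89 ± 0.20, 1.85-fold (adjusted p = 0.0038). From 0h to 24h it differed by 0.52 ± 0.20 (adjusted p = 0.083), which passed with the replicate block (adjusted p = 0.010) and without 24h replicate 1 (adjusted p = 0.042). ERKi 4h differed from 4h by -0.21 ± 0.20 (adjusted p = 1).

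The Hmga1 promoter region, 2010 bp long with its top-ranked summit 831 bp inside the gene in intron 1, had 253, 108 and 141 reads at 0h, 167, 104 and 148 after 4h of TGF-β, 154, 146 and 144 after 24h, 125, 90 and 114 in ERKi 4h, and 105, 87 and 78 in ERKi 24h. Every ERKi 24h library was below every 24h and every 0h library. It fell by 0.86 ± 0.19 on the log2 scale, 1.82-fold, from 24h to ERKi 24h (adjusted p = 0.011), a call lost without ERKi 24h replicate 3 (adjusted p = 0.062). From 0h to ERKi 24h it fell by 0.95 ± 0.19, 1.93-fold (adjusted p = 0.0020). Between 24h and 0h it differed by -0.09 ± 0.19 (adjusted p = 0.85). The 2 Hmga1 regions were the 2 of 5 members lower in ERKi 24h than at 0h, where 9.13% of all regions were lower.

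**Figure D4:**
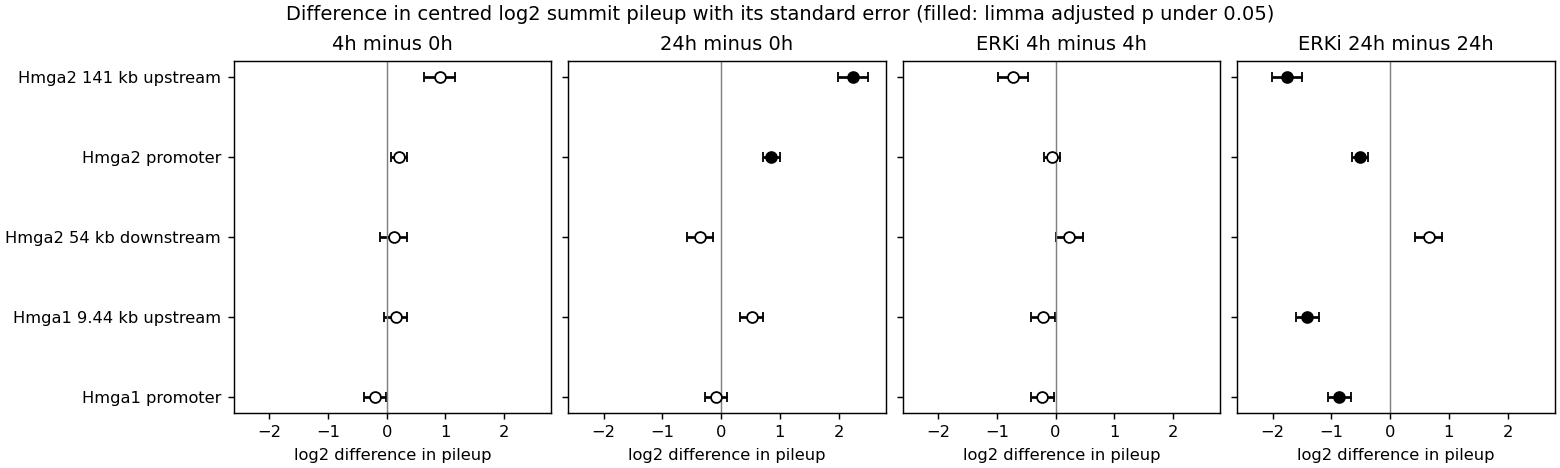
Log2 difference in centred summit pileup (x axis) with its standard error for the 5 tested regions (y axis) in 4 comparisons, filled where limma's adjusted p was under 0.05. At 24h against 0h the filled points are the Hmga2 promoter (0.86) and the region at 141 kb (2.24), and in ERKi 24h against 24h all but the region 54 kb downstream are filled, from -0.51 to -1.76.

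The local background moved with these heights. MACS2 divides the pileup by a background estimated around each summit, and at 141 kb upstream of Hmga2 this background was 3.16 to 4.89 reads at 0h, 17.7 to 28.3 at 24h and 3.39 to 7.01 in ERKi 24h. The fold enrichment, the ratio of both, was 5.35 to 6.25 at 0h, 4.77 to 6.42 at 24h and 6.6 to 8.87 in ERKi 24h, so that on this measure the region differed by -0.03 and 0.32 on the log2 scale in the comparisons where the pileup rose and fell. At the Hmga1 promoter the background was 35.4 to 38.1 reads at 24h and 10.17 to 12.91 in ERKi 24h, and the fold enrichment rose from 3.76 to 4.26 at 24h to 6.89 to 7.62 in ERKi 24h (log2 difference 0.78, adjusted p = 0.0028), opposite to the pileup. At the Hmga2 promoter the background was 20.7 to 44.3 reads at 0h and 46.1 to 67.6 at 24h, and at Hmga1 9.44 kb upstream it was 7.2 to 10.7 reads at 24h and 2.89 to 3.67 in ERKi 24h. The directions given above are those of the pileup, and the part of the local background in them was not tested. Scaled by the genome-wide background of each library in place of its median, the calls of the Hmga2 promoter (adjusted p = 0.098 for 24h against 0h and 0.69 for ERKi 24h against 24h) and of the Hmga1 promoter in ERKi 24h against 24h (adjusted p = 0.24) were lost, as was that of Hmga1 9.44 kb upstream in ERKi 24h against 0h (adjusted p = 0.11), with the same directions. The calls at 141 kb upstream of Hmga2 and of Hmga1 9.44 kb upstream in ERKi 24h against 24h held on that scale.

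**Figure D5:**
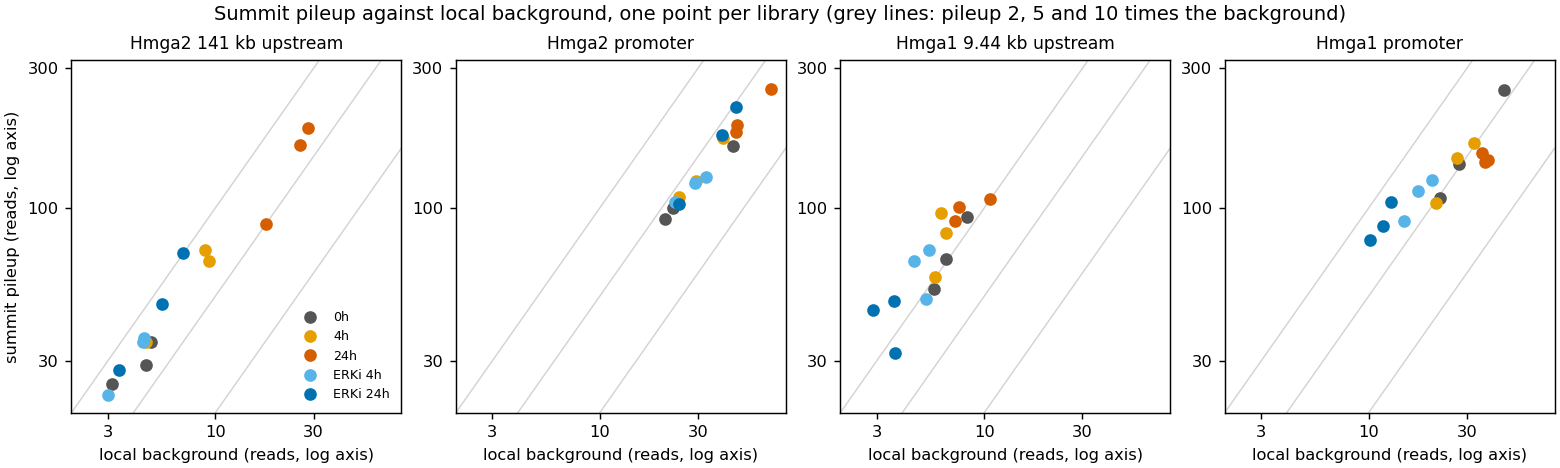
Summit pileup (y axis) against local background (x axis), both in reads on log axes, with a point for each library coloured by condition and grey lines at constant ratios. At 141 kb upstream of Hmga2 the 24h libraries lie up and to the right, along the lines rather than across them, and at the Hmga1 promoter the ERKi 24h libraries lie down and to the left with a higher ratio.

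The limits of the loci were set by the neighbouring start sites, since the farthest member peak lay 141522 bp from a start and no member came near 250 kb. On the upstream side of Hmga2 the first region outside lay 147 kb from its start, but nearer to that of 4921513I03Rik, and was called in 3 of 3 libraries at 24h, in 1 at 4h and in none of 0h, ERKi 4h or ERKi 24h, with 58 to 125 reads. On the downstream side of Hmga1 the first region outside lay 5.14 kb from the start, inside the gene but nearer to C130040N14Rik. It was called in all libraries of 0h, 4h and 24h, in 1 of ERKi 4h and in 0 of 3 of ERKi 24h, with 43 to 136 reads. The first regions outside on the other sides lay 249 kb from Hmga2, at Llph with 56 to 154 reads in 15 libraries, and 55.9 kb from Hmga1, with 14 to 18 reads in 4 libraries.

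Start sites of related and neighbouring genes were counted in the same fit. Of 7 other HMG architectural genes (Hmgb1, Hmgb2, Hmgb3, Hmgn1, Hmgn2, Hmgn3 and Hmgn5), which bend DNA or bind nucleosomes, 4 had a tested region over a start site, 7 regions in all. Of the 7 regions 1, at Hmgn2, fell at 24h against 0h (-0.46 ± 0.15, adjusted p = 0.037) and was lower in ERKi 24h than at 0h (-0.48 ± 0.15, adjusted p = 0.026), and 0 of 7 passed, or had an unadjusted p under 0.05, in the other comparisons. The median of the 7 was -0.07 at 24h against 0h, as was that of all regions, and 0.18 in ERKi 24h against 24h, where that of all regions was 0.02.

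Of 10 genes known to act upstream or downstream of Hmga2 (the TGF-β mediators Smad2, Smad3 and Smad4, the let-7 antagonists Lin28a and Lin28b, the EMT factors Snai1, Snai2 and Twist1, the HMGA2 target Igf2bp2 and the E-cadherin gene Cdh1), 5 had a tested region over a start site, 6 regions in all. In the comparisons of TGF-β with 0h and of the inhibitor with TGF-β alone 0 of the 6 passed, and 1 had an unadjusted p under 0.05, in ERKi 24h against 24h. The region at Smad4 was lower in ERKi 24h than at 0h (-0.58 ± 0.15, adjusted p = 0.012). The median was -0.09 at 24h against 0h and 0.12 in ERKi 24h against 24h. Snai1 had a region over its start that was not called in all libraries, and Snai2, Twist1, Lin28a and Lin28b had none.

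Of the 7 protein-coding genes with a start within 500 kb of that of Hmga2, 4 had a tested region. Only that of Tmbim4 passed, 0.53 ± 0.15 higher in ERKi 24h than at 24h (adjusted p = 0.032) and 0.61 ± 0.15 higher than at 0h (adjusted p = 0.0061), and at 24h against 0h 0 of the 4 passed and 0 had an unadjusted p under 0.05. Around Hmga1, 11 of 16 genes had a tested region, 9 regions in all. The region shared by AI413582 and C130040N14Rik fell by 0.79 ± 0.23 from 24h to ERKi 24h (adjusted p = 0.042), and ERKi 24h differed from 0h by -1.24 ± 0.23 (adjusted p = 0.00092). At 2900010M23Rik ERKi 24h differed from 0h by -0.48 ± 0.16 (adjusted p = 0.040). At 24h against 0h 0 of the 9 passed and 1 had an unadjusted p under 0.05.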

How the data were processed

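H3K27ac was measured by ChIP-seq in 15 libraries, 3 for each of 5 conditions. The 10 RNA-seq and 3 input samples of the series were not analysed here. Per the labels and the study's methods, the authors used bowtie (mm9) for alignment and ran MACS2 with its defaults on every library by itself. Whether a control entered the calls is not given in the sources used here. Each deposited list gives a fold enrichment (a ratio of pileup to local background), −log10 p and −log10 q values, and a summit position. No table of read counts was used. The members and gene lists were chosen with earlier results of these data known.

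Overlapping peaks of all libraries were merged into regions. Nearest start sites, introns and neighbours came from GENCODE vM1 and sequences from NCBIM37, both of the mm9 build. The whole-number pileup that gives both the fold enrichment and −log10 p (Poisson tail) was found within 0.005 for all but 31 of 893719 peaks. For the 26934 regions called in every library, log2 pileups of the highest peak, centred on each library's median, were fitted in limma 3.58.1 (R 4.3.3, mean-variance trend) over all 15 libraries, with Benjamini-Hochberg adjustment over all regions and a threshold of 0.05. Requiring a peak in every library leaves out regions absent from one condition, which were described by their calls. Values were set out for regions over a start site, called in all libraries, or called in 3 of 3 libraries of one condition and 0 of 3 of another.

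Libraries with the same replicate number deviated together from their condition means. All 30 such pairs had a correlation over 0.1 over the 26934 regions, from 0.335 to 0.79, and those with different numbers averaged -0.284. Deviations from a mean of 3 libraries sum to 0, so the negative average follows from the positive one. The main fit left this pairing out, and its standard errors were wider for it, 0.256 against 0.171 with the block at 141 kb upstream of Hmga2. The fit with the number as a block was an alternative whose value is given where it changes a call. Other alternatives used the fold enrichment, the percentile of the pileup, the genome-wide background as scale, a merging distance of 1000 bp, regions called in at least 12 libraries, and each library left out. Depth in reads is unknown from these files. The scripts were tested on simulated data, in which 200 regions were changed by 1 on the log2 scale at 24h. The simulated counts had counting noise added to the observed spread between libraries, which already holds it. All regions were given the same spread, and no pairing by replicate number was simulated. The fit called 28.5% of the 200 changed regions at 24h against 0h, with 1 false call, and this share may not hold for the real regions. A difference of that size can therefore fail to pass, and a comparison that did not pass does not show that levels were equal. Python 3.11.15 with SciPy 1.17.1 and pandas 2.3.3 was used.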

Additional observations from a re-analysis of the deposited data

Results flagged for a closer look

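In the fit with the replicate number as a block, the effect of ERK inhibition at 24h differed from that at 4h at the region 141 kb upstream of Hmga2, by -1.03 ± 0.24 (SE) on the log2 scale (limma, adjusted p = 0.013). The effect itself was -1.76 at 24h and -0.73 at 4h. At Hmga1 9.44 kb upstream the effects were -1.41 and -0.21, a difference of -1.19 ± 0.22 (adjusted p = 0.0025). Without the block neither difference passed (limma, adjusted p = 0.66 and 0.36). Both regions are shown because they passed with the block, and the share of all regions that did so was not worked out. In all 3 replicates of both regions the ratio of ERKi to TGF-β pileup was lower at 24h than at 4h.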

How the results depend on the processing

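With the fold enrichment in place of the pileup 0 of the 5 tested regions were higher at 24h than at 0h and 0 were lower in ERKi 24h than at 24h or at 0h, whereas 1 was higher in each of the latter 2 comparisons. Of the called differences, those of the Hmga2 promoter became -0.051 at 24h against 0h and 0.11 in ERKi 24h against 24h, those at 141 kb upstream -0.032 and 0.32, those of the Hmga1 promoter 0.78 in ERKi 24h against 24h and 0.44 against 0h, and those of Hmga1 9.44 kb upstream -0.23 (adjusted p = 0.56) in ERKi 24h against 24h and 0.013 against 0h. The local background moved with the pileup, as described above. With the genome-wide background as scale, 1 region was higher at 24h than at 0h, and 2 and 1 were lower in ERKi 24h than at 24h and 0h. With the replicate block 1 region was higher at 4h than at 0h, 1 was lower in ERKi 4h than at 4h, 1 was higher in ERKi 24h than at 24h and 2 were higher than at 0h, and it changed no other called count by over 1.5 times. With percentiles 1 was higher in ERKi 24h than at 0h. Over regions called in at least 12 libraries 2 members were higher at 4h, 4 higher and 2 lower at 24h, and 2 higher in ERKi 24h, each against 0h, with the shares of all 34839 regions given above. Apart from the Hmga2 promoter and the region 141 kb upstream at 24h, these calls depend on levels set to the lowest pileup of a list. Leaving out a library gave 0 to 1 regions higher at 4h than at 0h, 0 to 1 higher and 2 to 4 lower in ERKi 24h than at 24h. The lowest number, 2, was found without ERKi 24h replicate 3. The shares of all regions called were not worked out for the fits with fold enrichment, genome-wide background, replicate block, percentiles or a library left out. Whether the member counts in those fits stand out from all regions was thus not tested.

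The difference in Hmga2 peaks per library was 3.33 at 4h and 9 at 24h against 0h, 2.33 for ERKi 4h against 4h and -3 for ERKi 24h against 24h. Among peaks with −log10 q of at least 10 those at 4h and 24h against 0h and ERKi 24h against 24h were 1.33, 4 and -1.67. Among the 20000 peaks of highest −log10 p they were 1.33, 3.67 and -1.33, and that for ERKi 4h was -0.667. With the start sites of all annotated genes, which include a small RNA gene between the upstream regions, they were 0, 1 and -0.667, and within 100 kb 0.667, 2 and 1.33. In bases of peaks ERKi 4h was -36.3 from 4h at Hmga2 and -164 at Hmga1, and 4h was -388 from 0h at Hmga1, where the numbers of peaks differed by 0. Of 530 values of single regions under an alternative, 498 stayed on the same side of the threshold. Among these 498 the direction could differ only where neither value was past the threshold. How the depth in reads bears on the number of peaks in a library was not tested, and without totals a region with no peak has no upper limit.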
